A study of Mus musculus with 6 samples.

Results

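The 10 antioxidant enzyme genes *Sod1*, *Sod2*, *Cat*, *Gpx1*, *Gpx4*, *Prdx1*, *Prdx2*, *Txn1*, *Nqo1* and *Hmox1* were chosen by name. The rule uses no measured value, though it was written with earlier results of these data known. All 10 were found among the 36976 genes of the deposited FPKM table, and all 10 passed the filter on low values described below. FPKM (fragments per kilobase of gene, scaled in these data to the total over all listed genes) is a level per length. That lets levels of different genes be set side by side, within a limit. The length was that of all annotated exons merged, such as 3043 bases for *Prdx1*, 1051 for *Txn1* and 847 for *Gpx1*. The order of levels and the ratios between genes therefore also depend on the annotation. The 10 genes were measured by RNA-Seq in LT-CML stem cells, the long-term stem cells of chronic myelogenous leukaemia. These cells were sorted from bone marrow as the CD150+CD48-CD135- part of the Lineage-Sca-1+c-Kit+ (LSK) population. Both groups were tet-CML mice on the C57BL/6 strain, which carry a BCR-ABL1 transgene driven in blood stem and progenitor cells by SCL-tTA and switched on by withdrawing doxycycline, and both were taken at 5 weeks after induction. The control group held 3 *Gdpd3*+/+ libraries, numbered 1, 2 and 3, drawn from 22 males and 12 females. The other group held 3 *Gdpd3*-/- libraries, numbered 5, 6 and 7, drawn from 5 males and 5 females of a strain in which *Gdpd3*, the gene for a lysophospholipase D, was disrupted by genome editing. How many animals were pooled into each library was not given.

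Reactive oxygen species are made by mitochondria and by NADPH oxidases, and superoxide is the first of them. Superoxide dismutases turn superoxide into hydrogen peroxide, which catalase, glutathione peroxidases and peroxiredoxins then reduce, with glutathione and thioredoxin as electron donors recharged from NADPH. Blood stem cells are known to be sensitive to oxidants, and the transcription factors Nrf2 and Foxo3 are known activators of many genes of this system.

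*Gdpd3*, the disrupted gene, was read first. It stood at 7.30, 3.29 and 2.95 FPKM in the *Gdpd3*+/+ libraries and at 0.110, 0.0129 and 0.681 FPKM in the *Gdpd3*-/- libraries, here and below in the order of their numbers. The groups did not overlap, and the log2 difference was -4.005 (SE 0.77, adjusted p = 0.0588 in limma's test with Benjamini-Hochberg adjustment). Depth on genes, inferred from the FPKM values, was 4.98 to 6.28 Gb (gigabases) in *Gdpd3*+/+ and 2.13 to 3.64 Gb in *Gdpd3*-/- libraries. Of the gate markers, *Kit*, *Ly6a* and *Slamf1* were present in every library. Of those that the gate sorts against, *Cd48*, *Flt3* (the gene for CD135) and the lineage genes *Itgam* and *Ly6g* were not absent. *Itgam* had 19.3 to 22.3 FPKM in *Gdpd3*+/+ and 1.69 to 13.4 FPKM in *Gdpd3*-/-, apart and lower but not called. *Ly6g* had 19.0 to 44.2 and 23.6 to 40.6 FPKM, which overlapped. *Cd4* had 0.315 to 2.31 FPKM over all libraries, and *Cd8a* at most 0.0012 FPKM. *Flt3* rose, with 9.80 to 11.01 FPKM in *Gdpd3*+/+ and 36.8 to 46.5 FPKM in *Gdpd3*-/- (log2 difference 1.93, adjusted p = 0.00562 in limma with Benjamini-Hochberg adjustment), and *Cd48* had 39.8 to 44.8 and 51.6 to 92.2 FPKM, apart but not called (adjusted p = 0.188). The part of cells outside the gate in the members' values was not tested. Summed FPKM of 10 skeletal muscle genes was 812 to 1212 in *Gdpd3*+/+ and 10511, 15153 and 1995 in *Gdpd3*-/- replicates 5, 6 and 7. All 10 were apart and higher, against 23.5% of all genes tested, with 0 of 10 called and none at 0 in any library. Summed FPKM of 9 neutrophil genes was 29278 to 32191 in *Gdpd3*+/+ and 8148 to 13811 in *Gdpd3*-/-. In such bulk libraries, fewer cells of a type and less RNA per cell cannot be told apart.

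The antioxidant enzyme genes covered a wide range of levels in *Gdpd3*+/+ LT-CML stem cells. *Gpx1*, the gene for the main glutathione peroxidase of the cytosol, led with a mean of 1482 ± 60.4 FPKM (SD, n = 3). *Txn1*, the gene for thioredoxin, followed at 283 ± 9.11 FPKM. *Prdx1* and *Prdx2*, for cytosolic peroxiredoxins, had 142 ± 5.66 and 99.3 ± 4.71 FPKM, on either side of *Gpx4*, for the peroxidase that reduces lipid peroxides in membranes, at 126 ± 6.72 FPKM. The superoxide dismutase genes came lower, with 85.9 ± 2.49 FPKM for *Sod1* (cytosolic enzyme) and 27.1 ± 1.6 FPKM for *Sod2* (mitochondrial enzyme), and *Cat*, for catalase, lay between them at 60.9 ± 0.836 FPKM. *Nqo1*, for a quinone reductase, and *Hmox1*, for haem oxygenase-1, were lowest at 7.80 ± 0.259 and 7.39 ± 1.80 FPKM. Only this last pair of neighbours overlapped between libraries in the *Gdpd3*+/+ order.

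In *Gdpd3*-/- the order was the same, except that *Gpx4* (mean 219 FPKM) stood above *Prdx1* (193 FPKM). The ranges of that pair overlapped, as did those of *Prdx2* and *Sod1*, and no other neighbours in the *Gdpd3*-/- order did. The 10 genes together summed to 2251, 2369 and 2344 FPKM in the *Gdpd3*+/+ libraries and to 2447, 2738 and 2722 FPKM in the *Gdpd3*-/- libraries. *Gpx1* alone made up 63.0, 65.0 and 63.5% of that sum in *Gdpd3*+/+, and 56.1, 54.9 and 62.8% in *Gdpd3*-/-. Its share was thus lowest in *Gdpd3*-/- replicates 5 and 6, while replicate 7 lay just under the *Gdpd3*+/+ range.

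**Figure D1:**
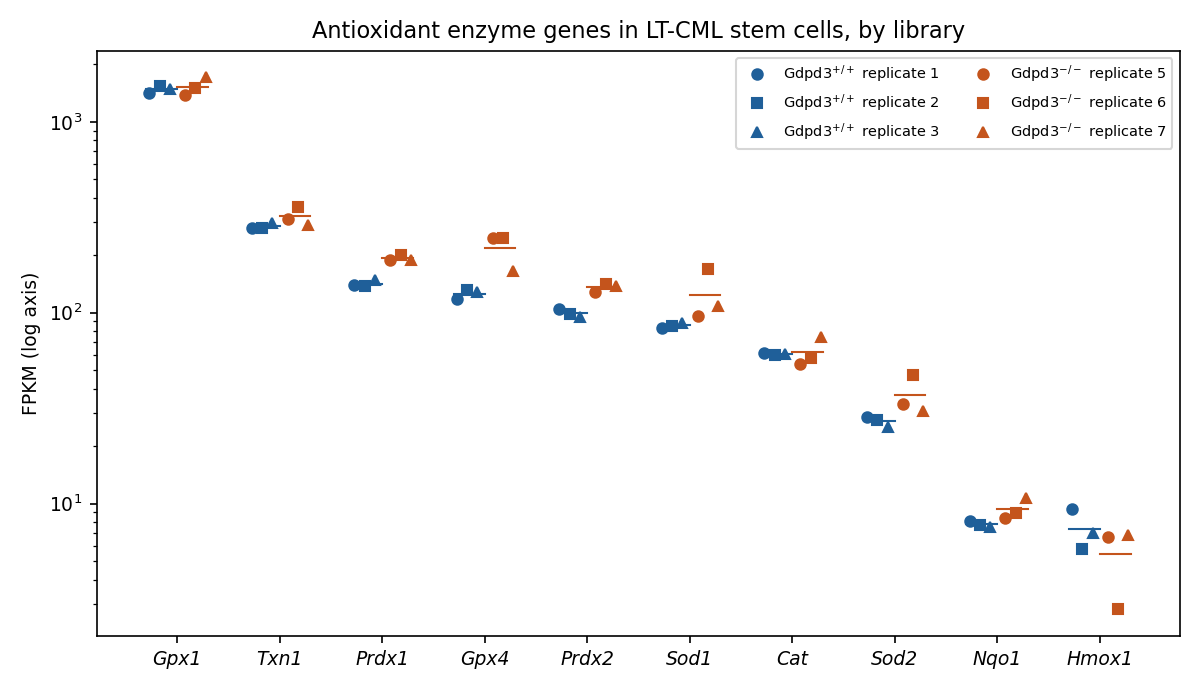
FPKM of each antioxidant enzyme gene (log axis) in the 3 *Gdpd3*+/+ libraries (blue) and the 3 *Gdpd3*-/- libraries (orange), with a short line at each group's mean and genes in the order of their *Gdpd3*+/+ level. *Gpx1* stands far above the rest, and the orange points clear the blue ones for *Prdx1*, *Gpx4*, *Prdx2*, *Sod1*, *Sod2* and *Nqo1*.

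The levels of these genes were then compared between the genotypes. No member passed an adjusted p of 0.05 in either direction (limma on log2(FPKM + 0.1) with Benjamini-Hochberg adjustment over 24689 genes), against 1.71% of all genes tested. The fitted difference was above 0 in 9 of 10 members and in 65.1% of all genes. At an unadjusted p under 0.05, 4 of 10 members were higher in *Gdpd3*-/- (*Gpx4*, *Prdx1*, *Prdx2* and *Sod2*) and none was lower, against 16.5% and 5.76% of all genes. In 6 of 10 members every *Gdpd3*-/- library lay above every *Gdpd3*+/+ library, against 23.5% of all genes. No member had every *Gdpd3*-/- library below, against 8.27%. The median log2 difference of the members was 0.34, where that of all genes tested was 0.24. With genes of mean FPKM under 1 left out, which keeps all 10 members, the median of all genes was 0.14. In that setting 3297 of 15103 genes were higher at an unadjusted p under 0.05, and 4261 were apart and higher. Both are larger shares than those over all 24689 genes.

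The scale of the libraries bears on these counts, since FPKM are shares of a total. Immunoglobulin genes (152) took 11.6 to 12.4% of covered bases in *Gdpd3*+/+ and 3.55 to 6.09% in *Gdpd3*-/- libraries. All 6 plasma cell genes were lower in every *Gdpd3*-/- library, against 8.27% of all genes, and 3 of them were called lower, against 0.616%. After TMM scaling, which sets the libraries to a common level by a trimmed mean, the member median was 0.13 and that of all genes 0.05, and 3 members (*Gpx4*, *Prdx1* and *Prdx2*) had groups apart and higher, against 14.5% of all genes. After quantile normalization, the member median was 0.25 and that of all genes -0.0063, and 4 members (*Gpx1*, *Gpx4*, *Prdx1* and *Prdx2*) had groups apart and higher, against 13.6%.

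The genes for the peroxiredoxins and for *Gpx4* gave the lowest p-values of the list. Their promoters are shown here, together with that of *Sod1*, so that the members with a match to the antioxidant response element can be set beside members without one. Each runs from 250 bases before to 50 bases after the RefSeq start of transcription on GRCm38.p6, all on the plus strand, and capitals mark every motif match listed after the sequences.
Prdx1, chr4:116685349-116685648: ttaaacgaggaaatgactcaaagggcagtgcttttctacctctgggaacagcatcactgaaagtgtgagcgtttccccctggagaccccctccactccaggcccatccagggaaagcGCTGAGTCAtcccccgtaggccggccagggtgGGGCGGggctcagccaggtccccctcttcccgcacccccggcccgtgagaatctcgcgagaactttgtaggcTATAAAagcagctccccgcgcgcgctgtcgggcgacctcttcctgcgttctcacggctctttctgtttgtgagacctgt
Prdx2, chr8:84969372-84969671: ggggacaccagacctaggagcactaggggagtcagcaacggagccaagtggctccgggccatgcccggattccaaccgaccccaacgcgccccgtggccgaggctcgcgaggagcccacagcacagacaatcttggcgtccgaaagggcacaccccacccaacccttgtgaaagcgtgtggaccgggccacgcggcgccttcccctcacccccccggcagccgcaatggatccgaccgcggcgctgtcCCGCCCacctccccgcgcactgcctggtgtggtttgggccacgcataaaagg
Gpx4, chr10:80053315-80053614: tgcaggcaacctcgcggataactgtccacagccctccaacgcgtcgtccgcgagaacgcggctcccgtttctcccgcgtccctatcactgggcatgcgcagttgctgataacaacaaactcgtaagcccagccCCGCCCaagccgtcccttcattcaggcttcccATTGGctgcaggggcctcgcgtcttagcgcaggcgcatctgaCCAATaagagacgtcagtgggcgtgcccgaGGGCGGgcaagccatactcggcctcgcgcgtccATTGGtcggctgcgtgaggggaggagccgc
Sod1, chr16:90220512-90220811: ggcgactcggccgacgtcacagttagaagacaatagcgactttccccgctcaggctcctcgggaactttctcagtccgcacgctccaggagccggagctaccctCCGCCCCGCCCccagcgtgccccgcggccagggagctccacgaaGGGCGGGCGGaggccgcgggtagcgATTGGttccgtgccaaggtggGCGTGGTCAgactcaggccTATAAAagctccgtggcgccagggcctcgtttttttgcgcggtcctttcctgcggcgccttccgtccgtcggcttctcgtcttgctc

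Of the 10 members, 9 matched a RefSeq promoter entry, and *Hmox1* did not. A member was counted for a motif if any of its promoters held it, which matters for *Gpx4* with its 4 entries. The shares over all promoters are of single promoters. The antioxidant response element core, TGACNNNGC, to which Nrf2 with its small Maf partners binds, was found on either strand in 2 of 9 members, against 12.4% of 32851 RefSeq promoters of the same length. The *Prdx1* match, read as GCTGAGTCA on the printed strand, starts at position -133, counted from the RefSeq start as +1, and its last letters also spell an AP-1 motif, TGAGTCA. The *Sod1* match, GCGTGGTCA, starts at position -56. No member held the Foxo core GTAAACA in this window, against 3.65% of all promoters. The GC box GGGCGG was found in 9 of 9 members, against 35.7%. The CCAAT box (CCAAT) was found in 4 of 9, against 37.4%, and the TATA box (TATAAA) in 4 of 9, against 13.6%. The 4 printed promoters had a GC content of 60.7% (*Prdx1*), 68.7% (*Prdx2*), 64.3% (*Gpx4*) and 66.7% (*Sod1*), above the median of 52.7% over all promoters. *Gpx4* has 4 RefSeq starts, and the one shown is the most upstream of 3 that lie close together. These matches are letters in the genome and say nothing of binding in these cells.

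*Prdx1* and *Prdx2* are 2-Cys peroxiredoxins that reduce hydrogen peroxide with electrons from thioredoxin. *Prdx1* (ENSMUSG00000028691.6, chr4:116358149-116373427 on mm9, plus strand) had 139, 137.5 and 148 FPKM in *Gdpd3*+/+ replicates 1, 2 and 3, and 189, 200.3 and 190 FPKM in *Gdpd3*-/- replicates 5, 6 and 7. The groups did not overlap, and the *Gdpd3*-/- libraries lay as close together as the *Gdpd3*+/+ ones (coefficients of variation of 3.3 and 4.0%). The log2 difference was 0.45 (SE 0.08, 95% interval 0.25 to 0.65), with an unadjusted p of 0.00127 and an adjusted p of 0.0568 (limma with Benjamini-Hochberg adjustment).

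*Prdx2* (ENSMUSG00000005161.9, chr8:87493486-87498733 on mm9, plus strand) had 104, 98.3 and 95.2 FPKM in *Gdpd3*+/+ and 129, 142 and 139 FPKM in *Gdpd3*-/-, again without overlap. Its log2 difference was 0.46 (SE 0.09, 95% interval 0.25 to 0.67, adjusted p = 0.0588 in the limma test with Benjamini-Hochberg adjustment). The level of *Prdx1* was 1.33 to 1.56 times that of *Prdx2* in all 6 libraries, so the pair kept nearly the same proportion in both genotypes. In the deposited annotation, 177 bases of the exons of *Prdx2* are shared with *Rnaseh2a* on the other strand, and whether counting used strand was not stated. *Rnaseh2a* itself had 25.2, 25.3 and 24.8 FPKM in *Gdpd3*+/+ and 26.2, 23.0 and 32.4 FPKM in *Gdpd3*-/-, which overlapped. Of the 150-base stretches of *Prdx2* transcripts, 2.01% also occur in transcripts of *Junb*, *Rnaseh2a* or *Tdpx-ps1*. *Junb* had 134.2, 149.9 and 135.0 FPKM in *Gdpd3*+/+ and 286.5, 175.2 and 331.5 FPKM in *Gdpd3*-/-, without overlap. *Tdpx-ps1* had 10.3 to 12.3 and 12.1 to 14.5 FPKM, which overlapped. The part of shared reads in the *Prdx2* values was not tested.

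*Prdx1* and *Prdx2* were the members with the most even values in *Gdpd3*-/-. The muscle genes were least raised in *Gdpd3*-/- replicate 7. As deposited, that library had 1.34 times the *Gdpd3*+/+ mean of *Prdx1* and 1.40 times that of *Prdx2*. The part of muscle RNA in the values of these 2 genes was not tested. With genes of mean FPKM under 1 left out, adjusted p was 0.0424 for *Prdx1* and 0.0450 for *Prdx2*, where 4.46% of all genes tested were called. Both were also called without *Gdpd3*-/- replicate 7 (adjusted p = 0.0244 and 0.0327), where 14.2% of all genes were called. Without *Gdpd3*+/+ replicate 1 the adjusted p of *Prdx1* was 0.265, and without *Gdpd3*+/+ replicate 3 that of *Prdx2* was 0.287, in settings that called 0 and 21 of all genes (limma with Benjamini-Hochberg adjustment throughout). The log2 differences hardly moved when 1 library was left out, at 0.42 to 0.48 for *Prdx1* and 0.43 to 0.50 for *Prdx2*. They did depend on the scale, and after TMM scaling fell to 0.24 for *Prdx1* and 0.25 for *Prdx2*.

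*Txn1*, whose product recharges the peroxiredoxins (ENSMUSG00000028367.5, chr4:57956245-57969283 on mm9, minus strand), had 279, 276 and 293 FPKM in *Gdpd3*+/+, and 311, 360.0 and 288 FPKM in *Gdpd3*-/- replicates 5, 6 and 7. Replicate 7 fell within the *Gdpd3*+/+ range, so the groups overlapped. The log2 difference was 0.17 (SE 0.11, 95% interval -0.092 to 0.43, adjusted p = 0.398 in limma with Benjamini-Hochberg adjustment), and it was -0.04 after TMM scaling. *Prdx1* stood at 0.498, 0.497 and 0.504 of the level of *Txn1* in *Gdpd3*+/+, and at 0.606, 0.556 and 0.659 in *Gdpd3*-/-, so that the ratio of peroxiredoxin to thioredoxin message was higher in every *Gdpd3*-/- library.

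**Figure D2:**
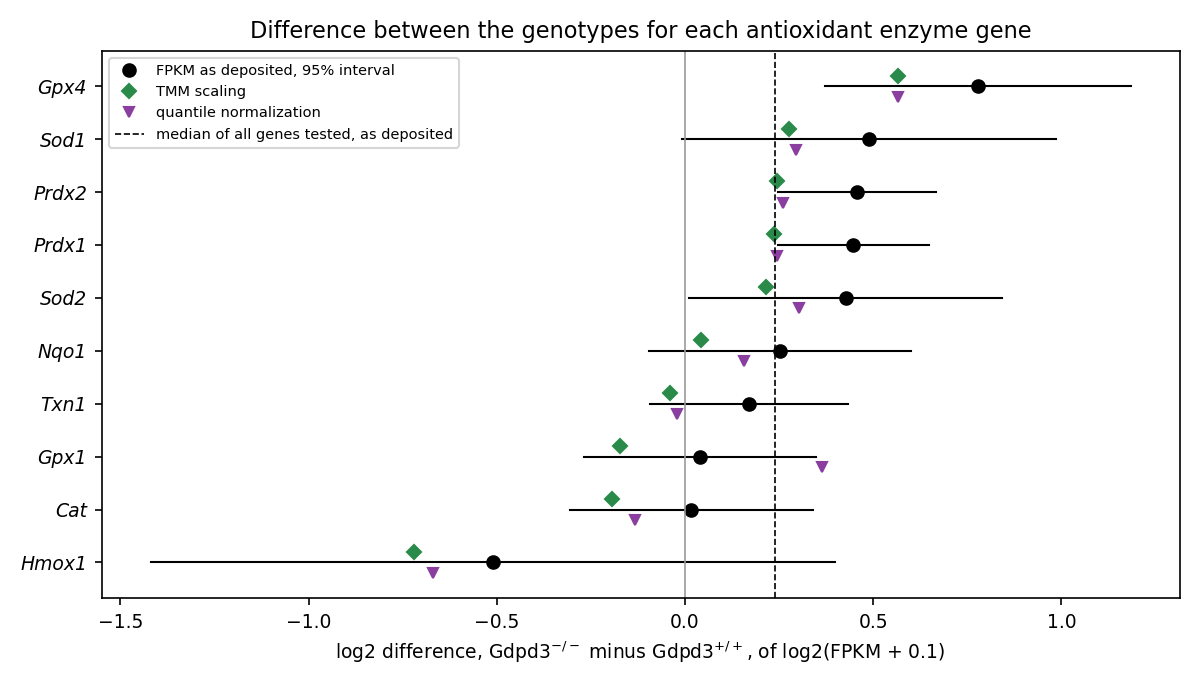
Log2 difference of each antioxidant enzyme gene, *Gdpd3*-/- minus *Gdpd3*+/+, with the FPKM as deposited (black, bars the 95% interval from limma), after TMM scaling (green) and after quantile normalization (purple). The dashed line is the median of all genes tested as deposited, 0.24, and only the bars of *Gpx4*, *Prdx1*, *Prdx2* and *Sod2* lie wholly above 0.

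The largest difference among the members was that of *Gpx4* (ENSMUSG00000075706.3, chr10:79509911-79519184 on mm9, plus strand), the selenoprotein known to protect cells from ferroptosis. It had 118, 131 and 128 FPKM in *Gdpd3*+/+ replicates 1, 2 and 3, and 247, 246 and 166 FPKM in *Gdpd3*-/- replicates 5, 6 and 7. All 3 *Gdpd3*-/- libraries lay above the *Gdpd3*+/+ range, with replicate 7 nearest to it. The log2 difference was 0.78 (SE 0.17, 95% interval 0.37 to 1.18, adjusted p = 0.0757 in limma with Benjamini-Hochberg adjustment), and it was 0.57 after TMM scaling. Without replicate 7 it was 0.97, with an adjusted p of 0.00554 in the same test, in a setting that called 14.2% of all genes tested.

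The same libraries, *Gdpd3*-/- replicates 5 and 6, carried the high muscle gene levels, and replicate 7 the lower one. The part of muscle RNA in the *Gpx4* values was not tested. In replicate 7 *Gpx4* was 1.32 times the *Gdpd3*+/+ mean. Of the 150-base stretches of *Gpx4* transcripts, 29.2% also occur in transcripts of *Gpx4-ps2*, a pseudogene that was not analysed here, so how reads were divided between them is uncertain.

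*Gpx1* (ENSMUSG00000063856.5, chr9:108241607-108242671 on mm9, plus strand), which reduces hydrogen peroxide with glutathione, had 1419, 1539 and 1489.8 FPKM in *Gdpd3*+/+. In *Gdpd3*-/- it had 1373.5, 1504.0 and 1709 FPKM, spanning the *Gdpd3*+/+ range on both sides. Its log2 difference was 0.04 (SE 0.13, 95% interval -0.27 to 0.35, adjusted p = 0.868 in limma with Benjamini-Hochberg adjustment), so a difference beyond about 0.35 in either direction lay outside the interval. It was -0.17 after TMM scaling and 0.37 after quantile normalization, so the sign of the *Gpx1* value depended on the scale.

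The ratio of *Gpx4* to *Gpx1* within a library does not depend on such scaling by 1 factor. It was 0.0834, 0.0851 and 0.0861 in *Gdpd3*+/+, and 0.179, 0.163 and 0.0969 in *Gdpd3*-/- replicates 5, 6 and 7. The *Gdpd3*-/- libraries all lay above the *Gdpd3*+/+ range, replicate 7 only just.

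*Cat* (ENSMUSG00000027187.4, chr2:103294006-103325317 on mm9, minus strand), whose product splits hydrogen peroxide without a reductant, was the most even member in *Gdpd3*+/+ at 61.6, 60.0 and 61.1 FPKM. It had 53.9, 58.3 and 74.6 FPKM in *Gdpd3*-/- replicates 5, 6 and 7, with the first pair below and the last above the *Gdpd3*+/+ range. The log2 difference was 0.02 (SE 0.13, 95% interval -0.30 to 0.34, adjusted p = 0.948 in limma with Benjamini-Hochberg adjustment). It was -0.19 after TMM scaling, and 0.29 (adjusted p = 0.0385) with replicate 7 as the only *Gdpd3*-/- library, a setting that called 10.2% of all genes. Summed FPKM of 13 erythroid genes, a lineage known to be rich in catalase, was 5661, 4392 and 3803 in *Gdpd3*+/+ and 2687, 3981 and 5841 in *Gdpd3*-/-, also lowest in replicate 5 and highest in replicate 7 of that group. Of the 13, 1 had groups apart and higher, against 23.5% of all genes tested. In 3 they were apart and lower, against 8.27%. None of the 13 was at 0, and their part in the *Cat* values was not tested.

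The genes for the superoxide dismutases, which stand at the head of the chain, were both higher in every *Gdpd3*-/- library as deposited. After TMM scaling and after quantile normalization the groups of both genes overlapped. The median log2 difference of the pair was 0.46 as deposited, 0.25 after TMM scaling and 0.30 after quantile normalization. *Sod1* (ENSMUSG00000022982.9, chr16:90220987-90226567 on mm9, plus strand) had 83.6, 85.5 and 88.5 FPKM in *Gdpd3*+/+, and 96.0, 169 and 108 FPKM in *Gdpd3*-/- replicates 5, 6 and 7. *Sod2* (ENSMUSG00000006818.4, chr17:13200705-13210985 on mm9, plus strand) had 28.5, 27.4 and 25.3 FPKM in *Gdpd3*+/+, and 33.4, 47.1 and 30.7 FPKM in *Gdpd3*-/-. For both genes replicate 6 stood far above the other two.

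The log2 difference of *Sod1* was 0.49 (SE 0.21, 95% interval -0.0082 to 0.99, adjusted p = 0.230 in limma with Benjamini-Hochberg adjustment), and it was 0.25 without replicate 6. That of *Sod2* was 0.43 (SE 0.17, 95% interval 0.01 to 0.84, adjusted p = 0.215 in the limma test with Benjamini-Hochberg adjustment), and it was 0.24 without replicate 6. Neither was called at the adjusted level in any setting. *Gdpd3*-/- replicate 6 was also the library with the highest muscle gene levels, and their part in these values was not tested. The ratio of *Sod1* to *Sod2* was 2.94 to 3.50 in *Gdpd3*+/+ and 2.88 to 3.59 in *Gdpd3*-/-, and so overlapped.

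*Nqo1* (ENSMUSG00000003849.8, chr8:109912125-109927106 on mm9, minus strand) and *Hmox1* (ENSMUSG00000005413.6, chr8:77617490-77624495 on mm9, plus strand) are the classic inducible targets of Nrf2, and were measured at low levels. *Nqo1* had 8.09, 7.70 and 7.60 FPKM in *Gdpd3*+/+, and 8.45, 8.89 and 10.7 FPKM in *Gdpd3*-/- replicates 5, 6 and 7. The groups lay apart by a narrow gap, with replicate 7 highest. The log2 difference was 0.25 (SE 0.15, 95% interval -0.095 to 0.60, adjusted p = 0.350 in limma with Benjamini-Hochberg adjustment), close to the median of all genes, and it was 0.04 after TMM scaling.

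*Hmox1* was the member with the widest spread, and the only one with a fitted difference below 0. It had 9.34, 5.79 and 7.05 FPKM in *Gdpd3*+/+, and 6.70, 2.81 and 6.85 FPKM in *Gdpd3*-/- replicates 5, 6 and 7. Replicates 5 and 7 fell within the *Gdpd3*+/+ range and replicate 6 below it. The log2 difference was -0.51 (SE 0.38, 95% interval -1.42 to 0.40, adjusted p = 0.465 in limma with Benjamini-Hochberg adjustment), and it was -0.10 without replicate 6. About 147 to 669 reads (covered bases divided by 150) lay behind the *Hmox1* values and 187 to 501 behind those of *Nqo1*, the fewest of the members. The coefficient of variation between libraries was 24.4% in *Gdpd3*+/+ and 42.0% in *Gdpd3*-/- for *Hmox1*, against 3.32 and 12.8% for *Nqo1*.

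**Figure D3:**
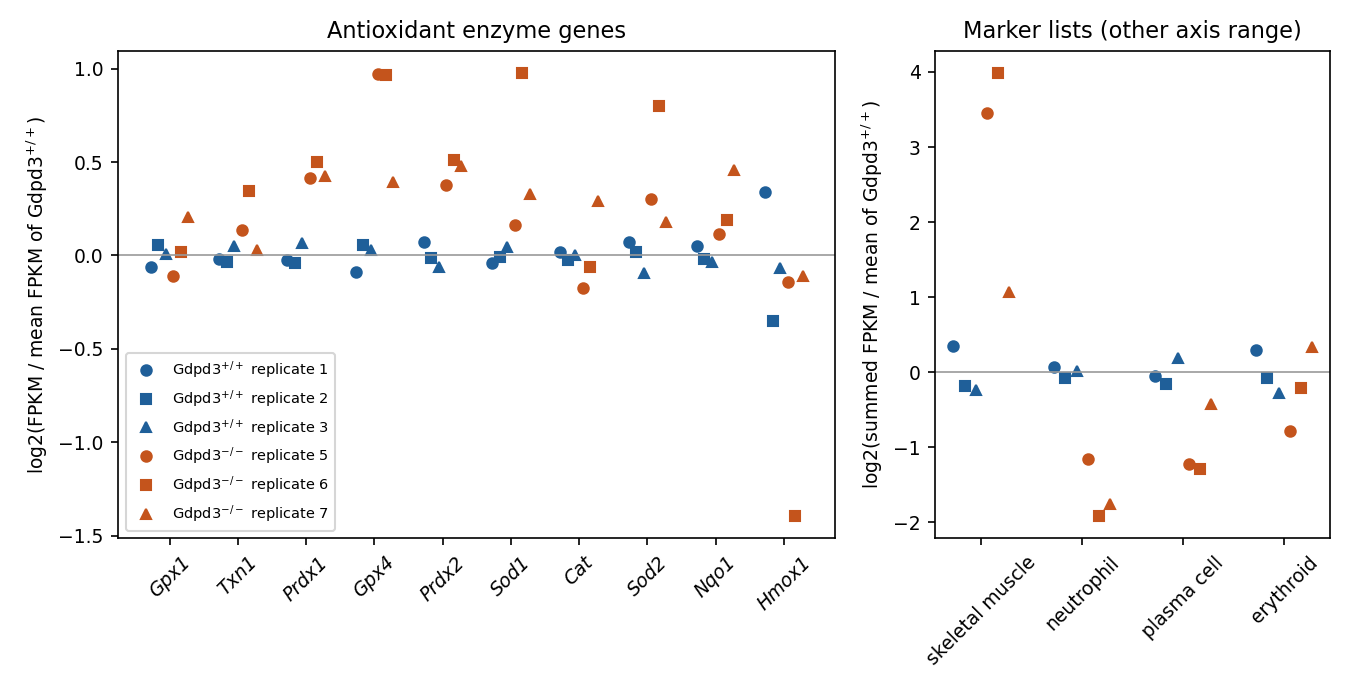
Left, log2 of the FPKM in each library over the *Gdpd3*+/+ mean for each antioxidant enzyme gene; right, the same for the summed FPKM of 4 marker lists, on a wider axis. *Gpx4*, *Sod1* and *Sod2* are spread among the *Gdpd3*-/- libraries while *Prdx1* and *Prdx2* are not, and *Gdpd3*-/- replicates 5 and 6 stand highest for skeletal muscle.

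The members were also compared singly with two-sided exact permutation tests on the group means, in which 3 libraries against 3 give 20 assignments and no p under 0.1. The 6 members whose groups lay apart (*Sod1*, *Sod2*, *Gpx4*, *Prdx1*, *Prdx2* and *Nqo1*) each gave p = 0.1 in this exact test. For *Txn1* the exact permutation p was 0.2 and for *Hmox1* 0.4. *Gpx1* and *Cat* gave 0.8 and 1.0 in the same exact permutation test. *Gpx4*, *Prdx1* and *Prdx2* were the only members whose groups lay apart as deposited and after both other scalings.

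Genes whose profile was among the most like that of *Prdx1*, the member with the lowest p, included *Tes*, *Tmem184b*, *Psmb1* and *Acat1*. They were taken from the 15102 genes averaging at least 1 FPKM, by the mean absolute difference of log2 values centred over the 6 libraries, which was 0.0171 for *Tes* and 0.0276 to 0.0321 for the other three. *Psmb1*, for a proteasome subunit, had 217, 231 and 233 FPKM in *Gdpd3*+/+ and 304, 328 and 304 FPKM in *Gdpd3*-/-.

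The 10 members were then set beside 96 other genes of the redox system, of which 95 were tested. Of these, 2 rose and 6 fell at an adjusted p under 0.05 in limma with Benjamini-Hochberg adjustment, where 1.09% of all genes tested rose and 0.616% fell. The calls made up 8.42% of the list, against 1.71% of all genes, and the median log2 difference was 0.02, below the 0.24 of all genes. In 28 of them every *Gdpd3*-/- library was above (29.5%, against 23.5% of all genes), and in 27 every one was below (28.4%, against 8.27%). The share with groups apart and higher was thus 60.0% in the 10 members and 29.5% in the wider list, a difference that was not tested.

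Among the partners of the thioredoxin chain, *Glrx3*, for a glutaredoxin that carries iron-sulfur clusters, rose from 76.5, 78.6 and 83.3 FPKM in *Gdpd3*+/+ to 113, 136 and 116 FPKM in *Gdpd3*-/- (log2 difference 0.61, SE 0.11, adjusted p = 0.0493, limma with Benjamini-Hochberg adjustment). *Txnip*, for the inhibitor of thioredoxin, had 225, 185 and 182 FPKM in *Gdpd3*+/+ and 141, 169.5 and 136 FPKM in *Gdpd3*-/-, without overlap and without a call (adjusted p = 0.143, limma with Benjamini-Hochberg adjustment). It was the most abundant of its list, in which 1 of 10 genes was called. Of the other peroxiredoxin, sulfiredoxin and sestrin genes 0 of 8 were called, and *Prdx6*, the most abundant of them, had 127 to 132 FPKM in *Gdpd3*+/+ and 148 to 162 FPKM in *Gdpd3*-/- (adjusted p = 0.151, limma with Benjamini-Hochberg adjustment).

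Among 13 genes of glutathione synthesis and recycling 1 rose and 1 fell. *Gsr*, for the reductase that returns oxidised glutathione to the form that *Gpx1* and *Gpx4* products use, fell from 166, 169.6 and 175 FPKM in *Gdpd3*+/+ to 60.2, 50.8 and 79.1 FPKM in *Gdpd3*-/-. All 3 *Gdpd3*-/- libraries were below 0.5 of the *Gdpd3*+/+ mean, with a log2 difference of -1.45 (SE 0.16, adjusted p = 0.0209, limma with Benjamini-Hochberg adjustment). *Gstp1*, for a glutathione S-transferase, rose from 203, 197 and 191 FPKM to 308, 345 and 273 FPKM (log2 difference 0.64, SE 0.11, adjusted p = 0.0487, limma with Benjamini-Hochberg adjustment). *Gstm1*, the most abundant of this list, had 360 to 410 FPKM in *Gdpd3*+/+ and 271 to 343 FPKM in *Gdpd3*-/- (adjusted p = 0.214 in the same limma test). The calls of *Glrx3* and *Gstp1* were lost after TMM scaling (adjusted p = 0.151 and 0.135) and after quantile normalization (0.102 and 0.0815), while *Gsr* was called under both.

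NADPH feeds both donors, and 0 of 11 genes of its supply were called. In 5 of 11 the groups lay apart and lower (45.5%, against 8.27% of all genes), and in 1 apart and higher. *G6pdx*, for the first enzyme of the pentose phosphate pathway, had 66.1 to 69.9 FPKM in *Gdpd3*+/+ and 42.6 to 51.0 FPKM in *Gdpd3*-/- (adjusted p = 0.0626, limma with Benjamini-Hochberg adjustment). It was called after TMM scaling and after quantile normalization (adjusted p = 0.0297 and 0.0494 in the same limma test). Its log2 difference was -0.51, and -0.46 with replicate 7 as the only *Gdpd3*-/- library. The median log2 difference of that list was -0.40, and it was -0.20 without *Gdpd3*-/- replicate 6, -0.25 without replicate 5 and 0.0350 without both.

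Another list held selenoprotein genes, synthesis factors of selenoproteins such as GPX1 and GPX4, and *Selenbp1*, for a selenium-binding protein. Of these, 0 of 9 were called and 5 of 9 had groups apart and higher (55.6%, against 23.5% of all genes). Among the synthesis factors, *Pstk* and *Eefsec* were apart and higher, while *Sephs2*, *Sepsecs* and *Secisbp2* overlapped. *Selenow* had 90.0, 97.6 and 104 FPKM in *Gdpd3*+/+ and 303, 342 and 148 FPKM in *Gdpd3*-/- replicates 5, 6 and 7 (adjusted p = 0.0798, limma with Benjamini-Hochberg adjustment), with replicates 5 and 6 far above replicate 7 as for *Gpx4*. *Gpx3*, for the secreted glutathione peroxidase, had 14.4, 9.50 and 12.1 FPKM in *Gdpd3*+/+ and 43.8, 68.3 and 11.8 FPKM in *Gdpd3*-/-, so that replicate 7 lay within the *Gdpd3*+/+ range. Its log2 difference was 1.47 (adjusted p = 0.223, limma with Benjamini-Hochberg adjustment), and -0.0065 with replicate 7 alone. Skeletal muscle genes were high in the same libraries, and their part was not tested. *Gpx8*, at 1.33 to 2.10 FPKM in *Gdpd3*+/+, was listed at 0 in *Gdpd3*-/- replicates 5 and 6 and had 0.626 FPKM in replicate 7 (adjusted p = 0.0941 in limma with Benjamini-Hochberg adjustment).

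Genes for haem and iron handling included 2 of 9 that fell, against 0.616% of all genes, and none that rose. *Slc40a1*, for the iron exporter ferroportin, fell from 27.8 to 28.3 FPKM in *Gdpd3*+/+ to 4.96, 6.80 and 10.2 FPKM in *Gdpd3*-/- (log2 difference -1.98, SE 0.25, adjusted p = 0.0275, limma with Benjamini-Hochberg adjustment). *Alas1*, for the first enzyme of haem synthesis, fell from 63.9, 70.8 and 71.9 FPKM to 19.9, 34.7 and 33.0 FPKM (log2 difference -1.27, adjusted p = 0.0485, limma with Benjamini-Hochberg adjustment). *Fth1*, for the heavy chain of ferritin, had 1153 to 1207 FPKM in *Gdpd3*+/+ and 2252.5, 2553 and 1759.8 FPKM in *Gdpd3*-/-. It was highest in replicates 5 and 6, as the muscle genes were, and was not called (adjusted p = 0.0565, limma with Benjamini-Hochberg adjustment). In the same limma test it was called after quantile normalization (adjusted p = 0.0275) and not after TMM scaling (adjusted p = 0.121). Macrophages are known to be rich in ferroportin, and of 10 monocyte and macrophage genes 2 (*Ly6c2* and *Vcam1*) were called lower. The median log2 difference of these 10 was -0.097, and 4 of them had a fitted difference above 0. Their summed FPKM was 1794 to 1875 in *Gdpd3*+/+ and 518 to 736 in *Gdpd3*-/-. Most of that sum was *Ly6c2*, with 1729 to 1796 FPKM in *Gdpd3*+/+ and 437 to 667 FPKM in *Gdpd3*-/-. *Tfrc*, not called, is in both the iron and the erythroid list. The part of these cell types in the values was not tested.

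All 9 genes of oxidant producing enzymes had a fitted difference below 0, where 65.1% of all genes tested were above 0. Of the 9, 3 fell at an adjusted p under 0.05, against 0.616% of all genes. They were *Cybb*, *Ncf1* and *Ncf4*, which encode the catalytic subunit and cytosolic partners of the phagocyte NADPH oxidase. *Ncf1* fell from 63.1, 59.7 and 60.8 FPKM in *Gdpd3*+/+ to 25.1, 22.2 and 25.6 FPKM in *Gdpd3*-/- (log2 difference -1.33, SE 0.10, adjusted p = 0.00678, limma with Benjamini-Hochberg adjustment). *Cybb*, at 46.6 to 58.9 FPKM in *Gdpd3*+/+ and 13.9 to 19.6 FPKM in *Gdpd3*-/-, fell by 1.66 on the log2 scale, and *Ncf4* fell by 1.05 (adjusted p = 0.0171 and 0.0454, limma with Benjamini-Hochberg adjustment). *Mpo*, for myeloperoxidase, had 1889, 2175 and 2040.1 FPKM in *Gdpd3*+/+ and 287, 695 and 800.5 FPKM in *Gdpd3*-/- (adjusted p = 0.0611, limma with Benjamini-Hochberg adjustment). All 9 neutrophil genes were also lower in every *Gdpd3*-/- library, against 8.27% of all genes, and 5 of them were called lower, against 0.616%. *Mpo* is in both lists, and no neutrophil gene was at 0. The part of neutrophil RNA in these falls was not tested.

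**Figure D4:**
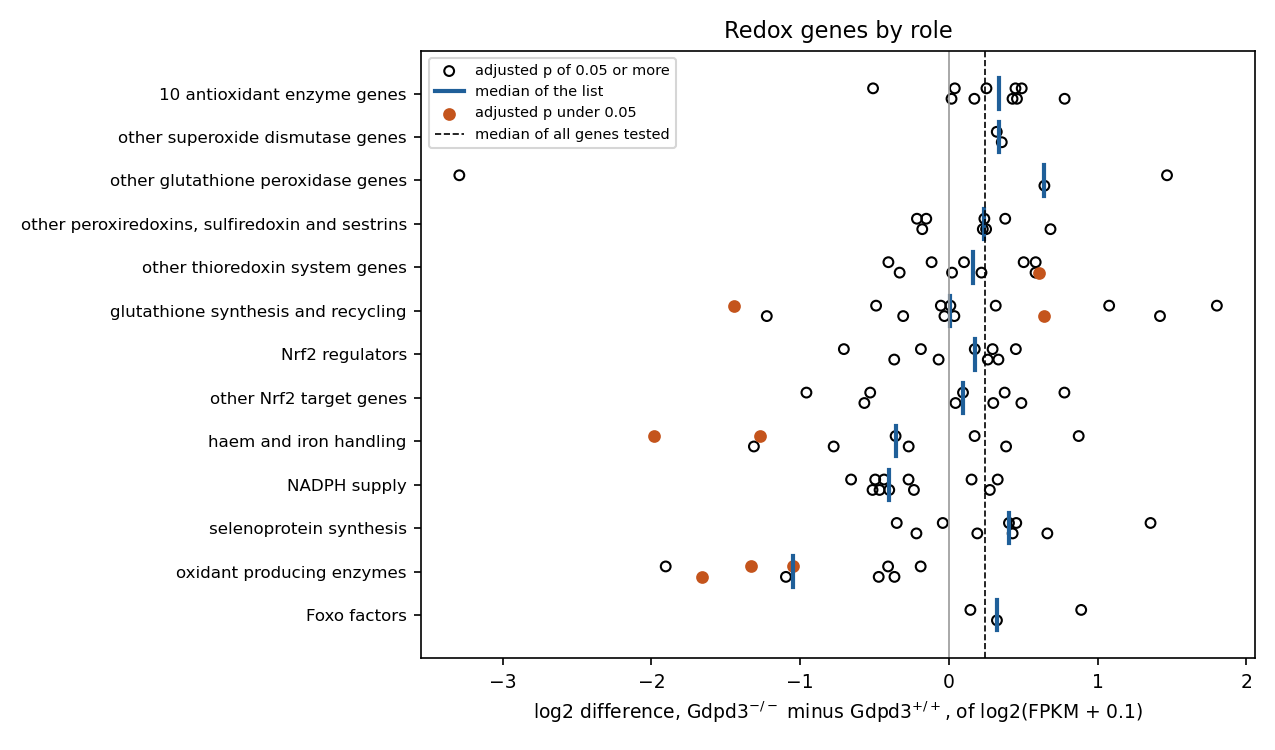
Log2 difference, *Gdpd3*-/- minus *Gdpd3*+/+, of the 10 antioxidant enzyme genes and of the wider redox genes by role, with 1 circle per gene, filled where the adjusted p is under 0.05, and a blue bar at each list's median. The 10 members lie mostly to the right of 0 with none filled, and the oxidant producing enzymes lie wholly to the left of 0.

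The regulators of the system gave no call. Of 9 genes for Nrf2 and its regulators 0 were called, and *Sqstm1*, whose product draws the Nrf2 inhibitor KEAP1 into autophagy, had 67.0 to 74.6 FPKM in *Gdpd3*+/+ and 83.2 to 100.3 FPKM in *Gdpd3*-/- (adjusted p = 0.138, limma with Benjamini-Hochberg adjustment). Of 9 other Nrf2 target genes 0 were called, *Cbr1* having 26.6 to 28.6 FPKM in *Gdpd3*+/+ and 42.6, 26.4 and 41.9 FPKM in *Gdpd3*-/-. Of these targets *Abcc4* had the lowest p, with 10.9 to 11.7 FPKM in *Gdpd3*+/+ and 6.53 to 8.86 FPKM in *Gdpd3*-/- (adjusted p = 0.116, limma with Benjamini-Hochberg adjustment). *Ccs*, for the copper chaperone of the *Sod1* product, had 31.0 to 36.0 FPKM in *Gdpd3*+/+ and 35.9 to 46.2 FPKM in *Gdpd3*-/- (adjusted p = 0.208, limma with Benjamini-Hochberg adjustment). Of the Foxo genes, *Foxo3* had 1.97, 2.16 and 1.83 FPKM in *Gdpd3*+/+ and 3.13, 6.22 and 2.71 FPKM in *Gdpd3*-/-, apart but not called (adjusted p = 0.197), while the values of *Foxo1* overlapped (adjusted p = 0.816, limma with Benjamini-Hochberg adjustment for both).

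The differences of the 8 called genes in the wider list kept their direction when 1 library was left out. The log2 range was -1.62 to -1.30 for *Gsr*, -1.77 to -1.52 for *Cybb*, -1.37 to -1.27 for *Ncf1* and 0.52 to 0.66 for *Glrx3*. It was -2.25 to -1.74 for *Slc40a1*, -1.42 to -1.02 for *Alas1*, -1.21 to -0.88 for *Ncf4* and 0.56 to 0.73 for *Gstp1*. The adjusted p of these genes did not stay under 0.05. Without *Gdpd3*+/+ replicate 1, 2 or 3 none of the 8 was called, in settings that called only 0, 1 and 21 of all genes tested, while *Slc40a1*, *Alas1*, *Cybb* and *Ncf1* were called in each of the 3 settings that left out a *Gdpd3*-/- library. Without *Gdpd3*-/- replicate 7 the list held 10 rises and 18 falls, where 14.2% of all genes were called.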

How the data were processed

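LT-CML stem cells were sorted into lysis solution, and libraries were made with the SMART-Seq v4 kit, fragmented by transposase and sequenced as paired reads of 150 bases. The authors deposited FPKM for 36976 genes. The submitters' processing notes list Trimmomatic, Trim Galore, cutadapt 1.16, STAR 2.6.1a, featureCounts 1.6.1 and the genome build mm9, without their settings. A deposited DESeq2 table holds the authors' own comparison (fold changes and p-values) and was not used.

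In every library FPKM times gene length became whole at an inferred depth (100% of low values, tolerance 0.02). These numbers were taken as covered bases, not reads, so no count model was run, and read numbers are approximate. The study describes the 3 samples of a group as independent. Library sizes differ between the genotypes, with *Gdpd3*-/- shallower.

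Values were taken as log2(FPKM + 0.1), and the 24689 genes averaging 0.05 FPKM or more were fitted by limma 3.58.1 (R 4.3.3) with genotype alone and a trend on intensity. P-values were adjusted by Benjamini-Hochberg over all of them. Fold changes on this scale understate those of low genes. Exact permutation tests used SciPy 1.17.1. The fit was tested on simulated data. Lists are described by counts and medians.

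The members, taken by name, and the gene lists were chosen with earlier results of these data known. Named wider genes are those called and, in each list, the gene with the lowest p or the highest mean level. A gene that the rule for profiles like that of *Prdx1* also gives is not reported here. As alternatives, the pseudocount was set to 0.01 or 1, the filter dropped or raised to 1 FPKM, the values scaled by TMM or quantile normalized, the trend dropped, array weights added, and each library left out in turn. Leaving out *Gdpd3*-/- replicates 5 and 6 together was added after seeing the data. Promoters came from RefSeq on GRCm38.p6, and shared 150-base stretches from a GENCODE transcript set, so only gene positions are on mm9.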

Additional observations from a re-analysis of the deposited data

How the results depend on the processing

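Of the 10 antioxidant enzyme genes, *Sod1*, *Sod2*, *Nqo1* and *Hmox1* kept their direction and stayed uncalled under all 14 alternatives. The log2 difference turned negative for *Cat* (-0.19 after TMM scaling, -0.13 after quantile normalization, -0.12 without *Gdpd3*-/- replicate 7), for *Gpx1* (-0.17 after TMM scaling, -0.0438 without replicate 7) and for *Txn1* (-0.0407 after TMM scaling, -0.0209 after quantile normalization). With replicates 5 and 6 both left out, *Cat* was 0.29 and called. With the filter raised to 1 FPKM, *Prdx1* (0.45) and *Prdx2* (0.46) were called.

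Leaving out 1 library at a time gave log2 differences of 0.25 to 0.65 for *Sod1*, 0.24 to 0.55 for *Sod2*, -0.12 to 0.11 for *Cat*, -0.0438 to 0.11 for *Gpx1*, 0.68 to 0.97 for *Gpx4*, 0.42 to 0.48 for *Prdx1*, 0.43 to 0.50 for *Prdx2*, 0.08 to 0.24 for *Txn1*, 0.15 to 0.32 for *Nqo1* and -0.72 to -0.10 for *Hmox1*. Members called higher were 0 to 3 when 1 library was left out (3 without *Gdpd3*-/- replicate 7, where 14.2% of all genes were called), 2 with the filter at 1 FPKM (4.46% of all genes) and 1 without replicates 5 and 6 (10.2%).

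The member median was 0.13 after TMM scaling. The median of all genes was 0.15 with a pseudocount of 1, 0.0461 without a filter, 0.14 with the filter at 1 FPKM, 0.0495 after TMM scaling and -0.0063 after quantile normalization. The median of the wider redox list was -0.19 after TMM scaling, -0.17 after quantile normalization and ranged from -0.0205 (without *Gdpd3*+/+ replicate 3) to 0.0408 when 1 library was left out.

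In that list, 2 genes called higher became 0 with a pseudocount of 1, without a filter, after TMM scaling, without the trend or with array weights, 1 after quantile normalization, 7 without replicates 5 and 6, and 0 to 10 when 1 library was left out. The 6 called lower became 2 without a filter, 10 after TMM scaling, 1 without the trend, 11 without replicates 5 and 6, and 0 to 18 when 1 library was left out. Over all genes, 270 were called higher and 152 lower, against 118 and 252 after TMM scaling and 119 and 206 after quantile normalization. The cause was not tested. *Hmox1* had the widest standard error of the members (0.38). No paired analysis was possible because no replicate number occurs in both groups.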
